A study of Rattus norvegicus with 22 samples.

Results

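Cells in the brain make their own cholesterol, and 8 genes of that supply were followed here in the nucleus accumbens (NAc) of 22 rats. The genes were chosen by name, by an exact match of their symbols to the 17310 genes listed in the count files, and all 8 were present. They comprised 6 enzymes of the synthesis route (Hmgcs1, Idi1, Fdft1, Sqle, Cyp51 and Dhcr7), the sterol sensor Insig1, and Srebf2, which encodes the transcription factor SREBP-2. No receptor for cholesterol uptake was among them, and uptake genes were examined in a wider list.

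RNA-seq had been carried out on NAc tissue from adult male Wistar rats in 2 experiments. In experiment 1, 5 rats had continuous access to 6 v/v % EtOH beside water for 8 weeks, and 5 rats had water only. In experiment 2, all 12 rats drank 6 v/v % EtOH for 4 weeks before and 2 weeks after a gavage period of 3 weeks, during which 6 rats received water through a gavage tube and 6 received EtOH (a 30 v/v % solution, 2.5 g/kg at each of 2 gavages a day). Experiment 2 therefore had no group without EtOH, and its comparison is that of EtOH gavage with water gavage in rats that all drank EtOH. Voluntary intake was not compared between its groups here. In experiment 1 the intake was voluntary, and Wistar is an outbred stock. Each library came from the NAc of 1 rat, with core and shell of both sides, so that in these bulk samples fewer cells of a type and less RNA per cell cannot be told apart.

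The route starts from acetyl-CoA, passes through mevalonate and isoprenoids to squalene, and closes the rings of the sterol before the last steps give cholesterol. It is held in balance by a feedback loop: when membrane sterol is low, SREBP-2 is released from the endoplasmic reticulum, is cut, and switches on the genes of the route, and when sterol is high the INSIG proteins hold it back. The blood-brain barrier keeps lipoproteins out of the brain, so neurons, astrocytes and above all myelinating oligodendrocytes rely on cholesterol made in the tissue.

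The genes of the loop share stretches of promoter sequence, and SREBP-2 is known to work together with the factor NF-Y, which binds the CCAAT box. Promoters from RefSeq (rat assembly GRCr8, from 250 bases before to 50 bases after the gene start) were matched for 6 of the 8 genes, and those of Sqle and Fdft1 were not matched. A CCAAT box on either strand was found in 4 of the 6, against 37.5% of 33469 rat promoters. The 200 bases before the start are printed below for these 4. Hmgcs1, Idi1 and Insig1 varied together between rats in both experiments, whereas Srebf2, with the same box, did not follow them in experiment 2. Cyp51 and Dhcr7, without the box in these windows, also varied with Hmgcs1. Pearson's r was 0.85 and 0.86 in experiment 1 and 0.71 and 0.60 in experiment 2, where Dhcr7 had 0.14 with Idi1 and 0.26 with Insig1. The part of the box in the covariation was not tested. Sequences run 5′ to 3′ on the strand of the gene, and capitals mark the CCAAT box, which reads ATTGG when it lies on the other strand, and the E-box CACGTG.
Hmgcs1 (chr2:53382104-53382303, plus strand): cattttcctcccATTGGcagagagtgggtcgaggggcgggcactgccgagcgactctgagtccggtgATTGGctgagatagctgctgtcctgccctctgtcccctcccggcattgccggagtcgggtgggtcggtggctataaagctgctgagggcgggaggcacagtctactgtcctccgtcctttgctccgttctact
Idi1 (chr17:66547525-66547724, minus strand): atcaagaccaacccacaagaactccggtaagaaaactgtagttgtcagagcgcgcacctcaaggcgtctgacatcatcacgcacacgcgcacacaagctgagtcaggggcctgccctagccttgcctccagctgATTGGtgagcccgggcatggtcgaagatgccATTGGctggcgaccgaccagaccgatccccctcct
Insig1 (chr4:8057770-8057969, minus strand): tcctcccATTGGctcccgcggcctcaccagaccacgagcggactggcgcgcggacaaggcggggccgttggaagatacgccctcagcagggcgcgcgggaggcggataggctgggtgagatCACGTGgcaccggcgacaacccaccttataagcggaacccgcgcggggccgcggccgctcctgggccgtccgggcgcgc
Srebf2 (chr7:115543107-115543306, plus strand): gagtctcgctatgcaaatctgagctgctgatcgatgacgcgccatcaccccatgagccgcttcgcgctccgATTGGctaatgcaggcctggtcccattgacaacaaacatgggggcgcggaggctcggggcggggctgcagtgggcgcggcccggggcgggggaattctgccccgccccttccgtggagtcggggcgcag
In each of these 4 promoters every CCAAT match lay on the strand opposite to the gene, with 2 matches in Hmgcs1 and in Idi1 and 1 in Insig1 and in Srebf2. The E-box CACGTG, a motif that SREBPs can also bind, was found only in Insig1 among the 6, against 6.42% of all promoters. The GC-rich box GGGCGG, bound by Sp1, was present in 5 of the 6 (Hmgcs1, Insig1, Srebf2, Dhcr7 and Cyp51), against 33.1% of all promoters. The letters TCACNCCAC, one form of the sterol regulatory element, were absent from these 6 windows and present in 1.12% of all promoters. All 4 motifs were searched on both strands, and a match describes the letters only.

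Between 2962291 and 5247386 reads per rat had been assigned to genes in experiment 1 and between 6713617 and 8765472 in experiment 2. The defining transcripts of striatal projection neurons, such as Drd1 and Pdyn, were abundant in every library, with median levels in the 2 control groups of 345 and 509 CPM and of 371 and 451 CPM. CPM stands for the reads of a gene scaled to the normalised library size. In experiment 2, 4 libraries stood apart from the other 8 on the first principal component of expression, which carried 72.8% of the variance within groups (24.3% in experiment 1). These were water gavage 1 and 5 and EtOH gavage 1 and 2, 2 in each group. They held the 4 highest shares of reads outside annotated genes, 52.8% to 58.0%, against 46.1% to 51.7% in the other 8, and the part of this in the levels of Srebf2 and Fdft1 was not tested. They separated completely from the other 8 in 2737 of 8655 genes, or 31.6%, and Srebf2 and Fdft1 were among these. The values of experiment 2 are therefore given with and without these libraries. Levels of the 2 experiments are not set against each other, because library type, sequencer and read length differed.

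The first enzymes of the route were at similar levels in both groups of experiment 1. Hmgcs1, the synthase that makes HMG-CoA at the entry to the mevalonate pathway, was measured at 408, 417, 375, 428 and 484 CPM in the water rats and at 473, 419, 500, 380 and 407 CPM in the EtOH rats. The ranges overlapped almost fully, and the means were 422 ± 39.8 and 436 ± 49.6 CPM (SD, n = 5 each). Idi1, the isomerase that balances the isoprenoid building blocks, stood at 45.4, 42.0, 43.8, 45.4 and 46.8 CPM with water and at 52.1, 47.7, 51.6, 41.7 and 41.8 CPM with EtOH. Of the EtOH rats, 3 lay above every water rat and 2 below every water rat, so that the EtOH rats lay on both sides of a narrow water range. The log2 fold changes of EtOH against water were 0.05 (SE 0.083) for Hmgcs1 and 0.08 (SE 0.090) for Idi1.

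After gavage the same enzymes were higher on average in the EtOH group, but the groups overlapped. Hmgcs1 ranged from 277 to 421 CPM with a median of 325 CPM after water gavage, and from 287 to 470 CPM with a median of 418 CPM after EtOH gavage. EtOH gavage 4 was the lowest of its group, and the other 5 EtOH rats had 400.0 to 470 CPM. The log2 fold change was 0.24 (SE 0.131), with a 95% interval from -0.04 to 0.53 and an unadjusted p of 0.0856 in edgeR's quasi-likelihood test. Idi1 ranged from 26.5 to 48.8 CPM with a median of 39.9 CPM after water gavage, and from 36.5 to 60.9 CPM with a median of 55.1 CPM after EtOH gavage. In 4 of 6 EtOH rats Idi1 exceeded every water rat, and the means were 39.1 ± 8.99 and 52.2 ± 9.12 CPM (SD, n = 6 each).

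Idi1 was the only member with an unadjusted p under 0.05 in either experiment. Its log2 fold change in experiment 2 was 0.38 (SE 0.169, 95% interval 0.02 to 0.75), with an unadjusted p of 0.0403 and a false discovery rate (FDR) of 0.675 in edgeR's quasi-likelihood test over 8655 genes. It did not reach the FDR threshold of 0.05. An exact two-sided permutation test over the 12 rats gave p = 0.0433, where the smallest value this design allows is 0.00216. Without the 4 libraries that stood apart the log2 fold change of Idi1 was 0.37 (SE 0.20, edgeR p = 0.0938), of similar size and with a wider error, and the exact permutation p with 4 rats a group was 0.2, where 0.0286 is the smallest possible. Leaving out any single rat kept the log2 fold change between 0.30 and 0.46.

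**Figure D1:**
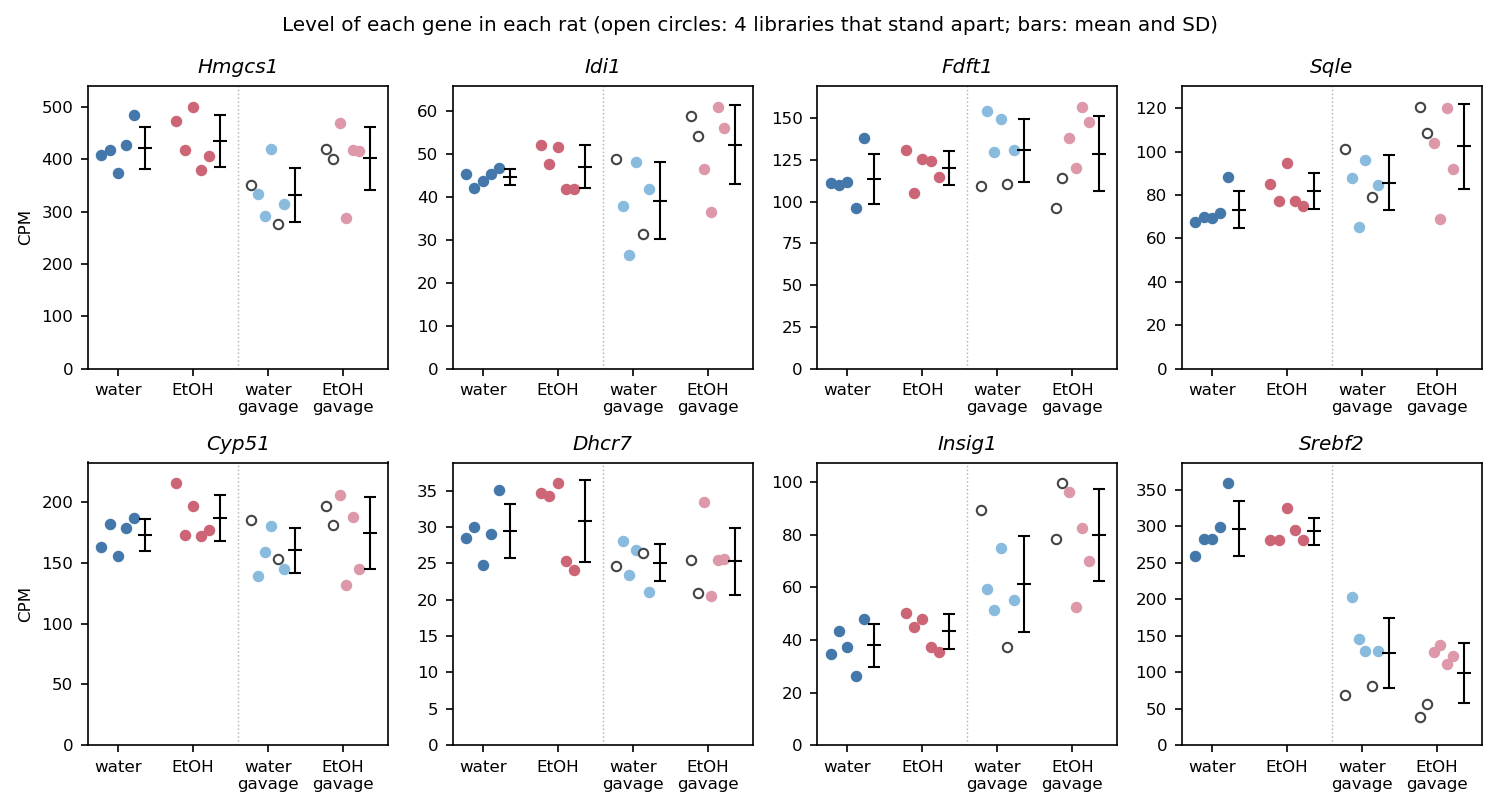
Levels of the 8 genes in CPM (vertical axis from 0) in each rat of the 4 groups; points are single rats, open circles are the 4 libraries of experiment 2 that stood apart, and bars show the group mean with its SD. EtOH and water groups overlap for every gene in both experiments, and Srebf2 is lowest in the 4 open circles (38.4 to 80.3 CPM, against 112 to 203 CPM in the other 8 libraries).

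Fdft1 and Sqle encode the enzymes on either side of squalene. Fdft1, squalene synthase, was at 111, 110, 112, 96.5 and 138 CPM in the water rats of experiment 1 and at 131, 105, 126, 124 and 115 CPM in the EtOH rats. The highest value belonged to a water rat, replicate 5, and all other values lay between 96.5 and 131 CPM. After gavage, Fdft1 ranged from 110 to 154 CPM with a median of 130 CPM in the water group, and from 96.3 to 157 CPM with a median of 129 CPM in the EtOH group. The log2 fold changes were 0.08 (SE 0.092) in experiment 1 and -0.05 (SE 0.148) in experiment 2. Within experiment 2 the 4 libraries that stood apart held the 4 lowest values, 96.3 to 114 CPM, and the other 8 held 120 to 157 CPM.

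Sqle, the epoxidase that prepares squalene for ring closure and a rate-limiting step of the late route, stood at 67.4, 69.7, 69.5, 71.6 and 88.2 CPM in the water rats of experiment 1 and at 85.1, 77.2, 94.9, 77.4 and 74.8 CPM in the EtOH rats. Every EtOH rat lay above 4 of the 5 water rats, while water rat 5 lay above 4 of the 5 EtOH rats. The log2 fold change was 0.16 (SE 0.092, edgeR p = 0.102, FDR 0.898), and the exact permutation test gave p = 0.127. Without water rat 5 it was 0.24 (SE 0.086), with an unadjusted p of 0.0133 and an FDR of 0.386 in edgeR. Leaving out this 1 library also raised the count of all 8655 genes with an unadjusted p under 0.05, from 483 to 743. In experiment 2, Sqle ranged from 65.5 to 101 CPM with a median of 86.2 CPM after water gavage, and from 69.0 to 121 CPM with a median of 106 CPM after EtOH gavage. In 4 of 6 EtOH rats it was above every water rat, and the log2 fold change was 0.22 (SE 0.143, edgeR p = 0.140, exact permutation p = 0.143).

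The enzymes that turn lanosterol into cholesterol showed small differences. Cyp51, the lanosterol demethylase, was at 163, 182, 156, 178 and 187 CPM with water and at 215, 173, 197, 172 and 177 CPM with EtOH in experiment 1. EtOH rats 1 and 3 were above every water rat, and the other EtOH rats lay within the water range. After gavage, Cyp51 ranged from 139 to 185 CPM (median 156 CPM) with water and from 132 to 206 CPM (median 184 CPM) with EtOH. Its log2 fold changes were 0.11 (SE 0.077) and 0.09 (SE 0.125). Dhcr7, the reductase of the last step of cholesterol synthesis, stood at 28.5, 30.1, 24.8, 29.0 and 35.0 CPM with water and at 34.6, 34.2, 36, 25.3 and 24.1 CPM with EtOH in experiment 1. The EtOH rats fell into 3 near the top of the water range and 2 near its bottom. After gavage, Dhcr7 ranged from 21.1 to 28 CPM (median 25.5 CPM) with water and from 20.5 to 33.5 CPM (median 25.5 CPM) with EtOH, and its log2 fold changes were 0.07 (SE 0.138) and -0.02 (SE 0.149).

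Insig1, which retains the SREBP complex in the endoplasmic reticulum and is itself a target of SREBPs, had the largest positive log2 fold change of the 8 in experiment 1, 0.18 (SE 0.148, edgeR p = 0.247, exact permutation p = 0.270). Its levels were 34.6, 43.3, 37.5, 26.3 and 47.9 CPM with water and 50.5, 45.1, 48.1, 37.2 and 35.5 CPM with EtOH. The coefficient of variation (CV, SD over mean) of the water group, 22%, was the highest of the 8 genes there. After gavage, Insig1 ranged from 37.4 to 89.5 CPM with a median of 57.4 CPM in the water group, and from 52.6 to 99.6 CPM with a median of 80.7 CPM in the EtOH group. In 5 of 6 EtOH rats it was above the water median, and 2 were above every water rat. The log2 fold change was 0.35 (SE 0.206, 95% interval -0.09 to 0.79), with an unadjusted p of 0.112 and an FDR of 0.675 in edgeR's quasi-likelihood test.

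Srebf2 had log2 fold changes below 0 in both experiments. In experiment 1 it stood at 259, 282, 283, 299 and 359 CPM with water and at 282, 281, 326, 295 and 282 CPM with EtOH, a log2 fold change of -0.01 (SE 0.080). Here the EtOH rats lay within the water range. After gavage it ranged from 68.9 to 203 CPM (median 129 CPM) with water and from 38.4 to 137 CPM (median 117 CPM) with EtOH. The CV was 38.4% and 41.5% in the 2 groups, the highest of the 8 genes in each. The log2 fold change was -0.38 (SE 0.341, 95% interval -1.12 to 0.35, edgeR p = 0.280, exact permutation p = 0.323), and -0.30 (SE 0.150, edgeR p = 0.0742, FDR 0.461) without the 4 libraries. Of the 4 EtOH rats that remained, 3 lay below every remaining water rat, and the means were 125 ± 10.4 and 152 ± 35.1 CPM (SD, n = 4 each; exact permutation p = 0.114).

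Counted together, 7 of the 8 genes were higher with EtOH in experiment 1, where 49.5% of all genes tested had a log2 fold change above 0, and the median log2 fold change of the 8 was 0.08. In edgeR's quasi-likelihood test 0 of the 8 had an unadjusted p under 0.05, at which 3.0% of all genes were called higher and 2.58% lower, and 0 reached an FDR under 0.05, as for all genes (0%). DESeq2 also called 0 of all genes at that FDR. EtOH and water groups overlapped for all 8 genes, and the share of all genes whose groups did not overlap was 0.786%. The fold changes of the 8 are not independent of each other, because their levels varied together between rats. Leaving out 1 rat at a time gave between 6 and 8 genes above 0 and a median between 0.045 and 0.145, the latter without water rat 5. The direction of so small a difference was not the same under every model: with the first principal component (not centred on the groups) as a covariate, Hmgcs1 and Fdft1 had log2 fold changes of -0.03 and -0.03, and 5 of 8 genes were above 0.

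In experiment 2, 5 of the 8 genes were higher after EtOH gavage (50.1% of all genes) and Fdft1, Dhcr7 and Srebf2 were lower, with a median log2 fold change of 0.16. The count with an unadjusted p under 0.05 in edgeR was 1, Idi1, against 0.705% of all genes called higher and 0.624% called lower. At an FDR under 0.05, edgeR called 0 of the 8 and 0% of all genes, and DESeq2 called none either. All 8 pairs of groups overlapped, and 0.0116% of all genes did not overlap. Without the 4 libraries that stood apart, 6 of 8 genes were above 0 (54.3% of all genes), with a median of 0.15, and 0 had an unadjusted p under 0.05 in edgeR, where 3.72% of all genes were called higher and 6.86% lower. EtOH gavage 4 had the lowest level of its group in 6 of the 8 genes (Hmgcs1, Idi1, Sqle, Cyp51, Dhcr7 and Insig1) and the highest Srebf2. When that rat was left out, edgeR gave unadjusted p-values of 0.0192 for Hmgcs1, 0.0142 for Idi1, 0.0276 for Sqle and 0.0463 for Insig1, each with an FDR of 0.395. The count rose from 1 to 4, while that over all 8655 genes rose from 115 to 776. The count was 2 without water gavage 1 (774 of all genes) or water gavage 4 (73 of all genes), and 0 without any of 8 rats (water gavage 2, 3, 5 and 6 and EtOH gavage 1, 2, 5 and 6, with 28 to 137 of all genes), since the p of Idi1 alone then ranged from 0.0501 to 0.0894. The directions of Fdft1, Dhcr7 and Srebf2 also depended on the model. With the share of reads outside genes as a covariate their log2 fold changes were 0.14, 0.04 and 0.15, and with the first principal component (not centred) they were 0.10, 0.02 and 0.04, so that all 8 genes were then above 0.

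**Figure D2:**
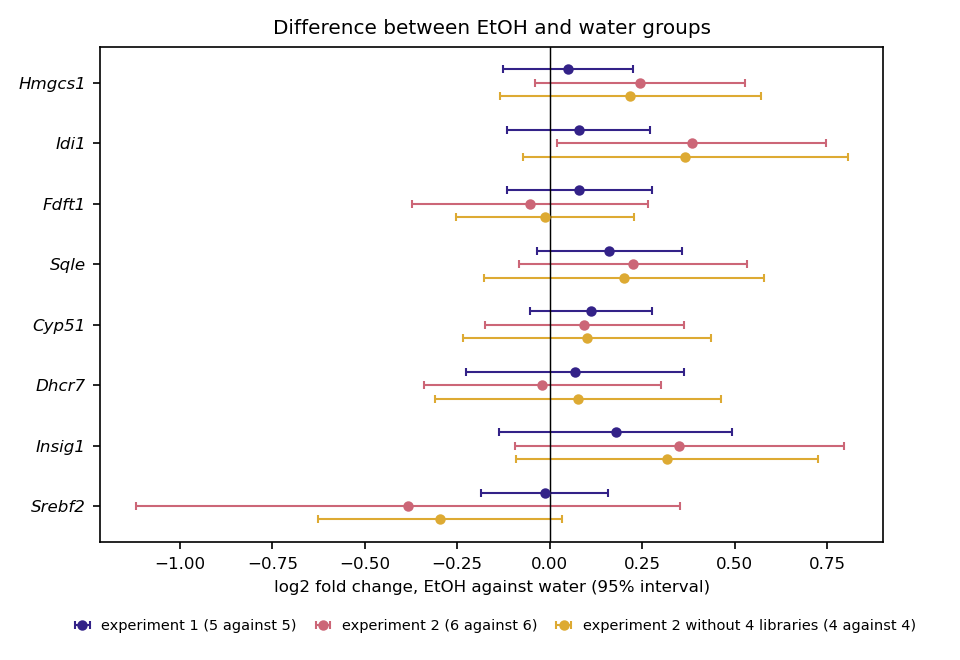
Log2 fold change of EtOH against water (horizontal axis) with its 95% interval from edgeR for the 8 genes in experiment 1, experiment 2, and experiment 2 without 4 libraries. All intervals include 0 except that of Idi1 in experiment 2 (0.02 to 0.75), and that of Srebf2 is far wider in experiment 2 (-1.12 to 0.35) than in experiment 1 (-0.18 to 0.16).

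The log2 fold changes of the 2 experiments were set against each other in a fit over all 22 rats. Treatment went together with library type, sequencer and read length, and the control rats of experiment 2 drank EtOH. A difference between treatments therefore cannot be told apart from one between experiments. The paper regards the experiments as not directly comparable, since experiment 2 had no water-only control. It did correlate fold changes between the experiments for the top-ranked genes of each. For genes ranked in experiment 1 it found a weak positive correlation, and proposes that a small shared effect of EtOH is possible. For genes ranked in experiment 2 its correlation was not significant. The difference of the log2 fold changes, experiment 2 minus experiment 1, was 0.31 (SE 0.20, 95% interval -0.11 to 0.72) for Idi1, 0.20 (SE 0.168) for Hmgcs1 and -0.36 (SE 0.404) for Srebf2. Unadjusted p-values in edgeR ranged from 0.140 for Idi1 to 0.914 for Cyp51. Of 8176 genes tested in both experiments, 0% differed at an FDR under 0.05 in edgeR, while 154 had an unadjusted p under 0.05. The fit shared 1 estimate of the spread (biological coefficient of variation 24.4%, against 11.1% and 31.3% in the separate fits), and the intervals of all 8 differences included 0.

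The levels of the 8 genes also varied together between rats of the same group. After log2 CPM had been centred on the group means, all 28 pairs of the 8 genes were positively correlated in experiment 1, with a median Pearson's r of 0.64 over 10 rats (range 0.29 to 0.89). The median r of the 8 with 8168 other genes was -0.01, and the median size of r regardless of sign was 0.26. The closest pairs were Sqle with Srebf2 (r = 0.89) and Hmgcs1 with Sqle (r = 0.87). The first principal component of experiment 1 had an r of 0.91 with Srebf2 and of 0.74 with Sqle. With the other members its r ran from 0.08 (Idi1) to 0.53 (Fdft1). Water rat 5 was the highest of its group for all 8 genes, and EtOH rats 1 and 3 shared the highest values of theirs, 4 genes each. Without water rat 5 the median r was 0.44, with 26 of 28 pairs positive. Spearman's coefficient gave a median of 0.61. These correlations are a description over a few rats whose libraries share depth and dissection, and they were not tested.

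In experiment 2 the 8 genes split. Over all 28 pairs the median r was 0.35 over 12 rats (range -0.51 to 0.88, 21 pairs positive), and the median size of r of the 8 with all other genes was 0.42. Among the 6 genes other than Srebf2 and Fdft1, a group chosen after the values were seen, all 15 pairs were positive, with a median of 0.71, and Sqle with Idi1 reached 0.88. Srebf2 and Fdft1 correlated with each other (r = 0.84) and followed the first principal component (r = 0.99 and 0.81). Srebf2 was negatively correlated with Cyp51 (-0.51), Sqle (-0.48) and Idi1 (-0.36). Without the 4 libraries, Fdft1 was positively correlated with the other enzymes, with r of 0.84 to Sqle, 0.76 to Idi1, 0.73 to Hmgcs1, 0.60 to Dhcr7 and 0.40 to Cyp51, whereas Srebf2 had a median r of -0.27 with the other 7 genes. In those 8 rats the median over all 28 pairs was 0.67, with 23 pairs positive, and the highest value was that of Hmgcs1 with Insig1 (0.96).

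**Figure D3:**
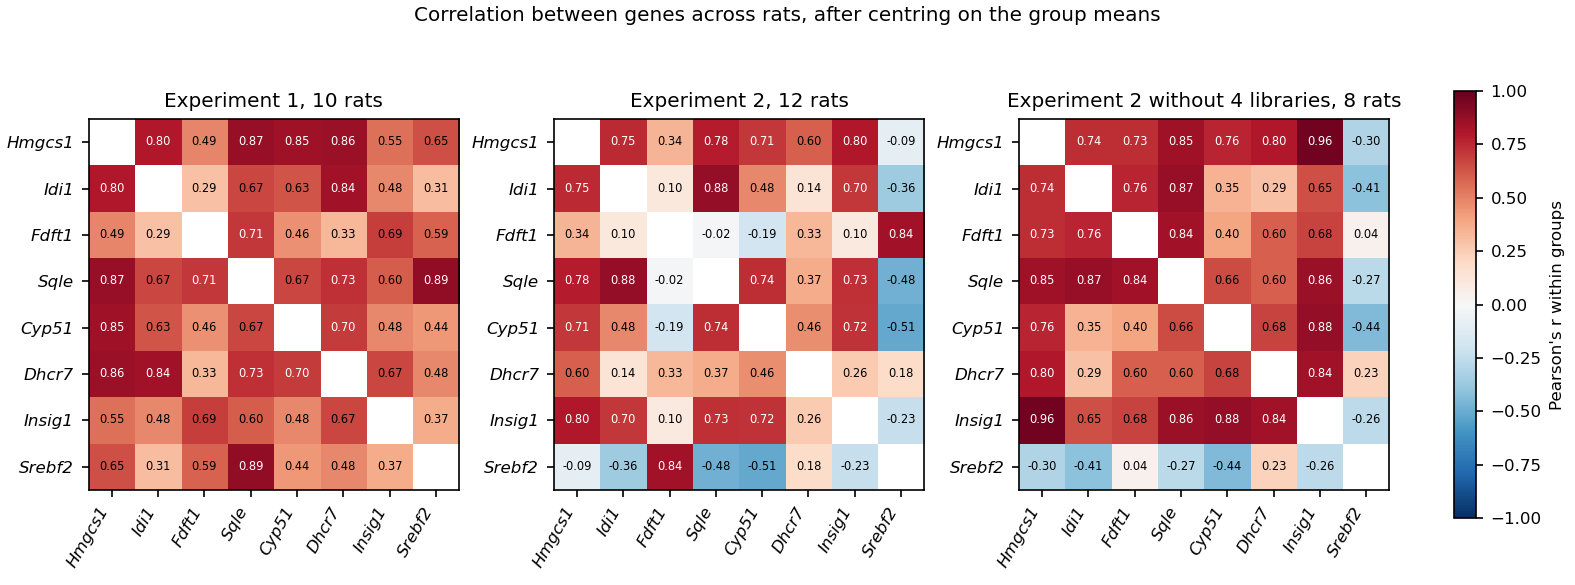
Pearson's r between each pair of the 8 genes across rats, after centring log2 CPM on the group means, from -1 (blue) to 1 (red), in experiment 1, experiment 2 and experiment 2 without 4 libraries. All pairs are positive in experiment 1, and the row of Srebf2 turns negative for most genes in experiment 2 (-0.51 with Cyp51), also without the 4 libraries (-0.44 with Cyp51).

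The order of the libraries shows the split directly. In the 4 libraries that stood apart, Srebf2 was at 38.4 to 80.3 CPM against 112 to 203 CPM in the other 8, with no overlap. Idi1 was at 31.4 to 58.7 CPM in the 4 and 26.5 to 60.9 CPM in the other 8, and Hmgcs1 at 277 to 419 CPM and 287 to 470 CPM, both with overlap. Water gavage 1 held the highest Sqle, Insig1, Idi1 and Cyp51 of its group together with the lowest Srebf2 and Fdft1. Fdft1 was low in the same libraries as Srebf2, whereas Hmgcs1, Idi1, Sqle, Cyp51 and Insig1 had an r below 0 with Srebf2, from -0.09 to -0.51, and Dhcr7 an r of 0.18. The RNA level of Srebf2 does not measure the cut, active protein.

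**Figure D4:**
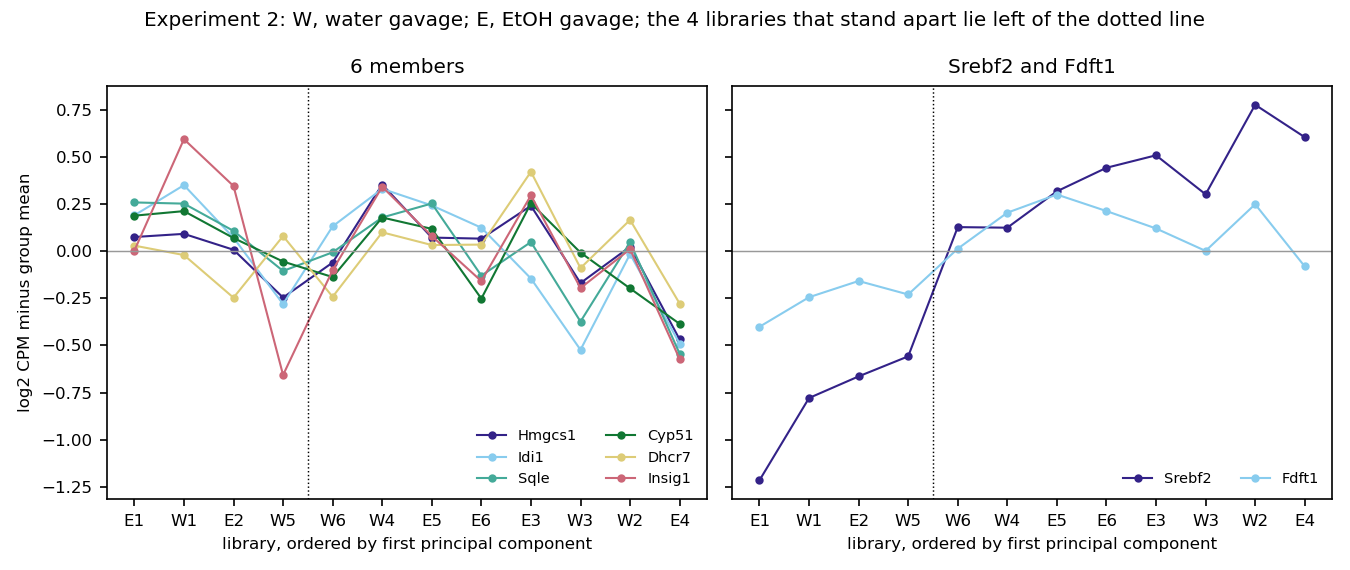
Log2 CPM minus the group mean (vertical axis) for 6 of the genes (left) and for Srebf2 and Fdft1 (right) in the 12 libraries of experiment 2, ordered by their score on the first principal component; W and E are water and EtOH gavage with the replicate number. Srebf2 rises along the order (r = 0.99 with the component). For the genes on the left, r is -0.56 (Sqle), -0.54 (Cyp51), -0.41 (Idi1), -0.28 (Insig1), -0.16 (Hmgcs1) and 0.08 (Dhcr7).

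The depth of the libraries and the cell types of the tissue also varied with the 8 genes. The mean of their standardised levels had an r of 0.31 with log2 reads on genes in experiment 1 and of 0.60 in experiment 2. With the share of reads outside genes, r was -0.48 in experiment 1 (Spearman's coefficient -0.72) and -0.06 in experiment 2. With the first principal component it was 0.55 and -0.01. With depth alone regressed out, the median r over the 28 pairs was 0.66 and 0.25. In experiment 1 that mean had an r of -0.38 with the summed level of 8 oligodendrocyte and myelin markers, -0.68 with 7 astrocyte markers, -0.48 with 9 striatal projection neuron markers and 0.68 with 5 cortical projection neuron markers. In experiment 2 these were -0.24, -0.43, -0.71 and 0.42. For the other 4 lists, r was 0.61 and -0.42 with endothelial and mural markers in the 2 experiments, -0.50 and 0.10 with oligodendrocyte precursor markers, 0.18 and -0.49 with choroid plexus and ependyma markers, and 0.01 and -0.29 with microglia markers. The sign of r was thus negative in both experiments for the striatal, astrocyte, and oligodendrocyte and myelin lists, and weakest for the last. For the cortical list it was positive in both. These values rest on 10 and 12 rats, and in experiment 2 the mean joins genes that split. The part of these cell types in the covariation was not tested.

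Sums of 3 of the 8 marker lists were higher with EtOH in experiment 1 at an unadjusted p under 0.05, and none after adjustment. Oligodendrocyte precursor markers, 4 genes of which 4 were higher with EtOH, summed to 348 to 387 CPM with water and 388 to 468 CPM with EtOH (exact permutation p = 0.00794, the smallest possible, and 0.127 after Benjamini-Hochberg adjustment over 16 sums). Endothelial and mural markers, 6 of 6 higher, summed to 352 to 403 CPM and 385 to 435 CPM (exact permutation p = 0.0317, adjusted 0.254). Choroid plexus and ependyma markers summed to 12.5 to 38.0 CPM and 31.0 to 48.9 CPM (exact permutation p = 0.0476, adjusted 0.254), with the defining markers Ttr and Folr1 at 0 counts in at least 1 library. After gavage the sums of these 3 lists overlapped, at 237 to 286 and 215 to 284 CPM, 185 to 432 and 178 to 346 CPM, and 7.75 to 24.4 and 7.06 to 17.4 CPM. Sums of oligodendrocyte and astrocyte markers, the cells with the most cholesterol synthesis, overlapped between the groups of both experiments (oligodendrocytes 8381 to 12187 and 6465 to 12663 CPM in experiment 1, exact permutation p = 0.730, and 9987 to 17104 and 9089 to 13099 CPM in experiment 2, p = 0.463; astrocytes 6712 to 7560 and 6953 to 7797 CPM, p = 0.421, and 4237 to 6247 and 4368 to 6802 CPM, p = 0.623). Sums of the other lists overlapped too, although 8 of 9 striatal markers were lower with EtOH in experiment 1 (median log2 fold change -0.25, 1 at an unadjusted p under 0.05 in edgeR), 5 of 9 were lower after gavage (-0.25), and 6 of 6 endothelial and mural markers were lower after EtOH gavage (-0.35, 0 at that p). The sums were for striatal projection neurons 2988 to 5305 and 2659 to 5289 CPM in experiment 1 and 4286 to 8448 and 4280 to 5990 CPM in experiment 2, microglia 300.5 to 348 and 298 to 333 CPM and then 180 to 377 and 169 to 319 CPM, and cortical projection neurons 183 to 738 and 269 to 685 CPM and then 5.56 to 540.3 and 5.72 to 402 CPM. Their part in the values of the 8 genes was not tested.

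The spread of the 8 genes within groups was close to that of other genes in experiment 1 and smaller in experiment 2. The median CV of the 8 was 12% with water and 10.4% with EtOH, where it was 10.9% and 10.7% over all genes tested. After gavage it was 15.1% and 18.1%, where it was 21.6% and 26.3% over all genes. Idi1 in the water rats of experiment 1 had the smallest CV, 4.08%, below the 7.46% that counting error alone would give at its mean count, and its counts there ran from 133 to 243. The counts of the 8 genes in single libraries ran from 77 (Insig1) to 3763 (Hmgcs1). The 8 together made up 1191 ± 114 CPM with water and 1239 ± 105 CPM with EtOH (SD, n = 5 each), and 960.3 ± 116 and 1064 ± 127 CPM after gavage (SD, n = 6 each).

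The wider list of sterol synthesis held more of the route. Of 20 genes in the list, 16 were tested in each experiment, the 6 enzymes included, and 12 were higher with EtOH in experiment 1 (median log2 fold change 0.07, against 0.00 over all genes) and 11 after EtOH gavage (median 0.08, against 0.00). The 16 were not all the same genes: Mvk and Mvd, kinase and decarboxylase of the mevalonate steps, passed the filter on low counts in experiment 1 only, and Ebp and Acat2 in experiment 2 only. The untested Mvk and Mvd had means of 9.23 ± 6.52 and 5.21 ± 5.76 CPM after water gavage and of 5.30 ± 3.85 and 2.5 ± 2.77 CPM after EtOH gavage (SD, n = 6 each). Idi1 in experiment 2 was the 1 gene with an unadjusted p under 0.05 in edgeR. The largest differences in size were those of Mvk, mevalonate kinase, in experiment 1 (-0.21, SE 0.143) and Idi1 in experiment 2. Of the 7 genes of sterol sensing and SREBP processing, 3 were higher in experiment 1 and 2 in experiment 2, with medians of -0.01 and -0.28 and 0 at an unadjusted p under 0.05 in edgeR. Mbtps2, a protease that releases SREBPs, had the largest value in experiment 1 (-0.22, SE 0.174), and Srebf1, the sister gene of Srebf2, in experiment 2 (-0.72, SE 0.573, and -0.66, SE 0.350, without the 4 libraries).

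Among 9 genes of uptake and intracellular transport, 4 were higher and 5 lower in each experiment, with medians of -0.01 and -0.08. Lipa, the lysosomal lipase that frees cholesterol from lipoprotein esters, had log2 fold changes of 0.38 (SE 0.085, unadjusted p of 0.00048 and FDR of 0.536 in edgeR) in experiment 1 and 0.39 (SE 0.172, unadjusted p of 0.0408 and FDR of 0.675) in experiment 2. It stood at 46.4 to 55.4 CPM with water and 56.2 to 68.8 CPM with EtOH in experiment 1, without overlap, and at 55.0 to 92.3 CPM and 54.8 to 116 CPM after gavage, with overlap. Without the 4 libraries the value of Lipa in experiment 2 was 0.41 (SE 0.185, unadjusted p of 0.0513 in edgeR). The largest value of that list in experiment 2 belonged to Lrp1, a receptor for lipoproteins (-0.66, SE 0.478, and -0.58, SE 0.234, without the 4 libraries, unadjusted p of 0.191 and 0.0300 in edgeR). Of the genes of efflux, esterification and turnover, 3 of 7 were higher in experiment 1 and 1 of 8 in experiment 2, with medians of 0.00 and -0.33. Abcg1, a transporter that exports sterol, had log2 fold changes of -0.19 (SE 0.069, unadjusted p of 0.0143 and FDR of 0.861 in edgeR) and -0.31 (SE 0.143, unadjusted p of 0.0492 and FDR of 0.675), with means of 117 ± 9.99 and 102 ± 3.43 CPM (SD, n = 5 each) and 95.8 ± 12.4 and 78.9 ± 13.8 CPM (SD, n = 6 each). Apoe, the main apolipoprotein made by astrocytes, had the largest value in experiment 2 (-0.93, SE 0.606, unadjusted p of 0.147 in edgeR). Without the 4 libraries Apoe stood at -0.87 (SE 0.393, unadjusted p of 0.0496), Abcg1 at -0.28 (SE 0.128, unadjusted p of 0.0533), and Cyp46a1, the hydroxylase that turns cholesterol over in neurons, at -0.35 (SE 0.141, unadjusted p of 0.0294; -0.37, SE 0.211, with all 12 libraries). Without these libraries edgeR called 2 of 8 efflux genes and 1 of 9 uptake genes lower at an unadjusted p under 0.05. It called 0 of these higher, and 0 of the 16 synthesis and 7 sensing genes in either direction. Of all 8655 genes it called 3.72% higher and 6.86% lower. The medians of the 4 lists were then 0.10 for synthesis, -0.11 for sensing, 0.04 for uptake, against -0.08 with all libraries, and -0.30 for efflux. No gene of the 4 lists reached an FDR under 0.05 in edgeR.

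The genes whose pattern between rats was most like the mean of the 8 were ranked over 8168 genes by the mean of r in the 2 experiments. St3gal5, the sialyltransferase that makes the ganglioside GM3, came first (r = 0.91 over 10 rats and 0.88 over 12 rats), followed by Rap1gds1 (0.80 and 0.86), Tspan5 (0.80 and 0.86) and Serpini1, the neuronal inhibitor neuroserpin (0.78 and 0.87). Lipa ranked 61. These 4 genes had log2 fold changes between -0.04 and 0.15 in experiment 1 and between 0.07 and 0.32 in experiment 2, and 0 of them had an unadjusted p under 0.05 in edgeR.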

How the data were processed

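PolyA+ RNA was sequenced from both NAc of every rat, with libraries that did not keep the strand in experiment 1 and did in experiment 2. The authors aligned reads to the rat genome (Rnor_6.0) with TopHat2 2.0.13 and deposited raw read counts per gene from htseq-count, of which the submitters' notes name the versions 0.5.3p3 and 0.6.0. The counting options and the annotation release were not given in the sources used here. Overlapping genes are therefore uncertain in both experiments, and genes with near-identical copies can be undercounted. The summary lines of the files (68.2% to 78.3% of all counts) were left out.

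Each experiment was fitted in edgeR 4.0.16 (R 4.3.3) with TMM, estimateDisp, glmQLFit and glmQLFTest, without covariates, on the upper 8655 of 17310 genes by base mean (the 50% filter of the study), with Benjamini-Hochberg adjustment over these. SEs were computed as the log2 fold change over the root of F. CPM used TMM factors, log2 CPM a prior count of 2. Single genes were tested with exact two-sided permutation tests over rats. Fits were tested on simulated counts. No pair of libraries agreed within sampling noise. Groups came from the sample titles. Counting error is that of reads, which are not independent molecules.

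The 8 genes and the lists were chosen with earlier results of these data known. All 8 were named. From the wider lists, genes with an unadjusted p under 0.05 in either experiment and the largest absolute log2 fold change per list and experiment were named, and, of the 5 genes most like the members, 4, since the other is not reported here. Cyp46a1, Mvd, Ebp and Acat2 were named after their values were seen. Alternatives were DESeq2 1.42.0, its size factors, no filter, at least 10 counts in every sample, the newer mode of glmQLFit, a replicate block, covariates, 1 fit over all groups and each rat left out. The fits without 4 libraries, the component without group centring and the settings for the correlations were added after the data were seen.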

Additional observations from a re-analysis of the deposited data

Results flagged for a closer look

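Among 32 groups of 5 or 6 rats (8 genes in 4 groups), 1 held a rat far from the others by Dixon's criterion, which flags about 1 in 20 groups by chance. It was Sqle in the water group of experiment 1, where replicate 5 stood at 88.163 CPM and the other 4 rats at 67.415 to 71.612 CPM. The gap took up 0.798 of the range of the group. The same rat was the highest of its group for all 8 genes.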

How the results depend on the processing

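In every alternative but 1, edgeR or DESeq2 called 0 of the 8 genes at an FDR under 0.05. The exception was experiment 2 with the group-centred first principal component as covariate, where 1 member (Srebf2) and 2232 of all genes were called, and 2 members had p under 0.05. The same covariate in experiment 1 called 7 of all genes and gave 1 member at p under 0.05. By construction a centred component cannot carry a group difference. Without centring it called 0 genes, with 1 member at p under 0.05 in experiment 1 (where Hmgcs1 was -0.0262 and Fdft1 -0.0281) and 0 in experiment 2, where 8 members were above 0 and the log2 fold changes of Fdft1, Srebf2 and Dhcr7 turned to 0.0991, 0.0443 and 0.0178. The share of reads outside genes as covariate also gave 0 members at p under 0.05 and 8 above 0 in experiment 2, with Fdft1 at 0.142, Srebf2 at 0.154 and Dhcr7 at 0.0376. In experiment 2, members at p under 0.05 numbered 2 in the fit over all 4 groups (623 of all 8655 genes) and 0 without the 4 libraries (916, against 115 in the reported fit), where Dhcr7 was 0.0763 (0.0119 without a filter). Deviations of rats with the same replicate number had correlations of -0.13 to 0.14 in experiment 1 and -0.76 to 0.84 in experiment 2. In experiment 2 these cannot settle whether the numbers pair the rats, because 1 component carried 72.8% of the variance within groups. With the replicate block 0 members had p under 0.05 in experiment 2, the median log2 fold changes were 0.0813 and 0.150, and all genes at p under 0.05 numbered 476 and 414, against 483 and 115 without it. The difference between experiments for Cyp51 turned to 0.00523 with DESeq2's size factors, 0.00578 in DESeq2 and 0.0356 without a filter.

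With 1 rat left out, members at p under 0.05 ranged from 0 to 1 in experiment 1 (1 without water rat 5, with 743 of all genes) and from 0 to 4 in experiment 2 (4 without EtOH gavage 4, with 776 of all genes), members above 0 from 6 to 8 and from 5 to 7, and the median from 0.045 to 0.145 and from 0.111 to 0.234. Signs turned for Hmgcs1 (-0.00566 to 0.104) and Srebf2 (-0.0577 to 0.0658) in experiment 1, Fdft1 (-0.125 to 0.0279) and Dhcr7 (-0.125 to 0.0300) in experiment 2, and the difference between experiments for Sqle (-0.0119 to 0.147) and Cyp51 (-0.0835 to 0.0437). The cause was not tested. Depth limits Dhcr7 and Insig1 most in experiment 1, with 84 and 77 counts in their lowest libraries.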
